A study of Mus musculus with 22 samples.

Results

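The 10 claudin genes described here, in mouse lung after instillation of carbon nanotubes, were Cldn1, Cldn2, Cldn3, Cldn4, Cldn5, Cldn7, Cldn8, Cldn10, Cldn18 and Cldn23. They were chosen by name, as claudins of airway, alveolus and vessel, and found on the array through the RefSeq accession that the scanner files give for each probe. The 10 genes had 12 probes of the 55681 on the array, and 20018 genes in all had a named probe. Cldn2 and Cldn4 had 2 probes each, and the brighter probe stood for the gene. All 10 genes passed the filter on low signal.

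Claudins are small proteins that cross the membrane repeatedly and build the strands of tight junctions, the belts that seal the space between neighbouring epithelial or endothelial cells. Most of them tighten the seal, and a few, among them Cldn2 and Cldn10, form pores that let ions pass between cells. In the lung, alveolar epithelium is known for Cldn3, Cldn4 and Cldn18, endothelium for Cldn5, and conducting airways for Cldn1, Cldn7, Cldn8 and Cldn10.

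The study asked how lung transcripts change after a single intratracheal instillation of Mitsui7, a multiwalled carbon nanotube. Female C57BL/6 mice, 8 weeks old, were given 18, 54 or 162 µg in 40 µl, or the vehicle alone (0.9% NaCl with 10% lavage fluid), and the right lung was taken after 24 hours. Arrays of 5 controls, 6 mice at 18 µg, 5 at 54 µg and 6 at 162 µg were analysed, 1 array a mouse. All mice, controls included, were anaesthetised with Hypnorm and Dormicum and received vehicle, and the 3 dose groups were compared with the same 5 controls. Each array held RNA of 1 lung in the Cy5 channel and, in the Cy3 channel, the same universal mouse reference RNA. The value of a probe is therefore a log2 ratio of lung over reference, and a level of one probe says nothing about the level of another.

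The arrays lay on 7 slides, and 2 of these, with 6 arrays, held no control. The share of probes above the limit set by negative control spots ran from 70.0% to 77.7% on control arrays, from 55.5% to 77.9% at 18 µg, from 58.3% to 78.9% at 54 µg and from 53.5% to 83.5% at 162 µg. The tissue label was borne out by its markers: Sftpc (alveolar type II), Ager (alveolar type I), Scgb1a1 (club cells), Foxj1 (ciliated cells) and Pecam1 (endothelium) were well above background on all 22 arrays. By the basal cell keratins Krt5 and Krt15, 4 arrays stood apart: control replicate 4, 18 µg replicate 3, 54 µg replicate 5 and 162 µg replicate 3. Their log2 ratios of Krt5 were 3.01, 2.64, 2.81 and 2.31, and those of the other 18 at most 0.37. For Krt15 they were 2.56, 2.47, 2.90 and 2.01, against at most 0.46. Krt14, another basal keratin, did not set them apart, at -0.99, -0.90, -0.55 and -1.38 against -1.59 to -0.36. The mean of 6 basal cell genes was 1.47, 1.37, 1.67 and 0.73 on them, against at most 0.20. In whole lung, fewer cells of a type and less RNA per cell cannot be told apart.

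The bases before the start of 3 members are shown because Cldn2 was the member that was higher after exposure, while Cldn3 and Cldn5 varied together from array to array. They are the 250 bases upstream of the RefSeq start in GRCm38.p6, 5′ to 3′ on the strand of the gene, with motif matches in capitals. The Cldn2 stretch is chrX:139800558-139800807 on the plus strand, that of Cldn3 is chr5:134985964-134986213 on the plus strand, and that of Cldn5 is chr16:18776597-18776846 on the plus strand.
Cldn2: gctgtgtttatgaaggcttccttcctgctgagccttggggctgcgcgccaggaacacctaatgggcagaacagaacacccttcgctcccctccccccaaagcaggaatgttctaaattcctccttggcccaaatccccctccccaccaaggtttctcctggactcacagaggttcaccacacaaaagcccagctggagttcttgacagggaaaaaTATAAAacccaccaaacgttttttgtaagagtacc
Cldn3: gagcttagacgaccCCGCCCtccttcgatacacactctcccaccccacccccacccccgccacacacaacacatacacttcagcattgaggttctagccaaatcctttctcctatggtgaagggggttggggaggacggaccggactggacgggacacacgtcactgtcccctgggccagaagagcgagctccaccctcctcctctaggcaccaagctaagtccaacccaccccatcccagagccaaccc
Cldn5: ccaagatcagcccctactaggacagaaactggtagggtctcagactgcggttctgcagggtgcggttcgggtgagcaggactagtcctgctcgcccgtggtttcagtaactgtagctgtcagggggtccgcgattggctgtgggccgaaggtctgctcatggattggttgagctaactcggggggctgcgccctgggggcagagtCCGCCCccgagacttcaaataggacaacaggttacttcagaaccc
Both strands were searched for 5 motifs. The AP-1 motif was TGANTCA, held by 6.75% of the stretches of all 32851 RefSeq starts. The STAT motif TTCNNNGAA was held by 7.02%, and GCGTG, the core of the xenobiotic response element, by 28.2%. The letters searched for the TATA box were TATAAA, and those for the GC box were GGGCGG. The capitals of Cldn2 are a TATA box at -35 to -30 from the start, a motif that 12.4% of 32851 upstream stretches of the same length held. The capitals of Cldn3, at -236 to -231, and of Cldn5, at -45 to -40, are GC boxes read on the minus strand, found in 32.7% of the stretches. These matches do not overlap another of the 5 motifs, and a match is a description of letters, not a site. RefSeq stretches were matched to 8 of the 10 members, and those of Cldn8 and Cldn23 were not analysed here. Of the stretches not shown, that of Cldn4 held AP-1 matches and a stretch of Cldn7 held a STAT match. GCGTG was matched in Cldn4, Cldn7 and Cldn10.

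**Figure D1:**
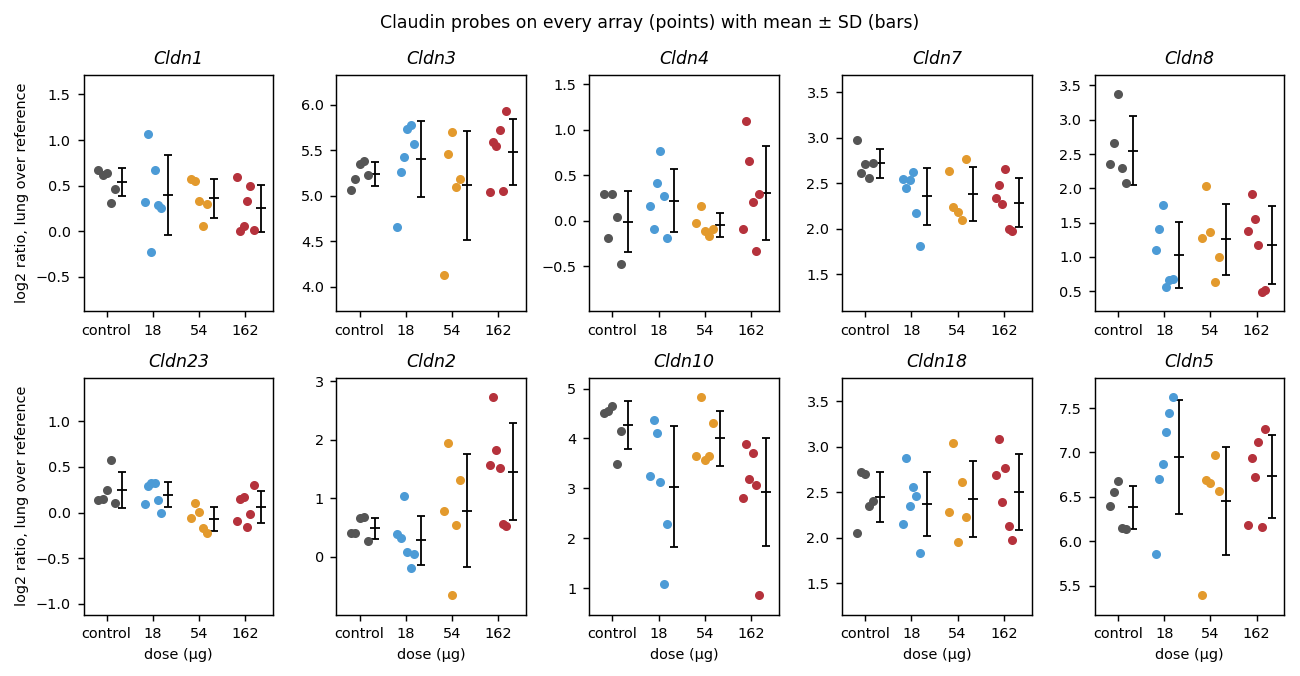
The log2 ratio of lung over reference of each claudin on every array (points, left to right in order of replicate number) by dose in µg, with the mean ± SD of each group (n = 5, 6, 5 and 6). Each panel has its own axis range; all Cldn8 points of the dosed mice lie below the 5 controls, and 4 of 6 Cldn2 points at 162 µg lie above them.

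Cldn8 fell at every dose and Cldn2 rose at 162 µg, and no other claudin passed the test against controls. A gene passed where limma gave an adjusted p of at most 0.05 (Benjamini-Hochberg over all probes) and the change was at least 1.5-fold. At 18 µg 1 of 10 claudins passed, beside 2.07% of the 16404 expressed genes. At 54 µg it was 1 of 10, beside 0.39%. At 162 µg it was 2 of 10, beside 6.89%. For the 3 doses in rising order, the median log2 fold change of the 10 claudins was 0.02, -0.17 and -0.10, and over all expressed genes it was -0.02, -0.01 and -0.01.

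Cldn8 is a sealing claudin, best known from kidney tubule and colon, where it keeps the junction tight to cations. Its probe A_52_P549190 had log2 ratios of 2.35, 2.66, 3.37, 2.30 and 2.07 in the 5 controls. At 18 µg the lowest, median and highest of 6 values were 0.57, 0.89 and 1.76. At 54 µg the 5 values were 1.28, 2.03, 1.37, 0.63 and 1.00. At 162 µg the lowest, median and highest were 0.50, 1.28 and 1.91. Every dosed mouse was thus below the lowest control, a separation towards lower values that 1.99% of expressed genes had at 18 µg, 1.8% at 54 µg and 4.49% at 162 µg.

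The controls had a mean Cldn8 log2 ratio of 2.55 ± 0.50 (SD, n = 5). The dosed groups had 1.03 ± 0.48 (18 µg, n = 6), 1.26 ± 0.52 (54 µg, n = 5) and 1.17 ± 0.57 (162 µg, n = 6). With slide in the limma model, Cldn8 was 2.38-fold lower at 18 µg (log2 fold change -1.25, SE 0.14, adjusted p = 0.00170). It was 2.06-fold lower at 54 µg (log2 fold change -1.05, SE 0.15, adjusted p = 0.0118) and 2.38-fold lower at 162 µg (log2 fold change -1.25, SE 0.14, adjusted p = 0.000179). The 3 doses, of which 54 µg had the highest fitted level and 18 and 162 µg nearly the same one, did not differ from each other beyond their spread. The log2 difference between 162 and 18 µg was -0.00 (95% confidence interval -0.28 to 0.28), and that between 162 and 54 µg -0.20 (-0.51 to 0.10).

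The unnormalized Cy5 signal of Cldn8 lay between 202.5 and 426 on control arrays and between 83 and 215 on the arrays of the dosed mice, so that the ranges overlapped slightly, above a local background with a group median of 67 to 72. The reference RNA gave 19 to 40 units in Cy3 on the 22 arrays, near the low end of that channel. With normexp background correction the log2 fold changes of Cldn8 were smaller, at -0.92, -0.84 and -1.04 in order of dose, and all passed. The Cldn8 probe was well above background on 5 of 5 control arrays, 4 of 6 at 18 µg, 5 of 5 at 54 µg and 4 of 6 at 162 µg. The arrays lowest in Cldn8 were 162 µg replicates 5 and 6, 18 µg replicates 4 to 6 and 54 µg replicate 4. They were also the dimmest of the 22, with a median Cy5 signal of 83 to 94.5 against 102 to 140 on control arrays. On the brightest array, 162 µg replicate 1 (164), Cldn8 was 1.37. The part of brightness in the Cldn8 values was not tested. On slides that held a control, Cldn8 was lower than that control on 4 of 4 slides at 18 µg (by log2 differences of -1.40 to -0.54), on 3 of 3 at 54 µg (-1.44 to -1.07) and on 4 of 4 at 162 µg (-1.58 to -0.75).

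**Figure D2:**
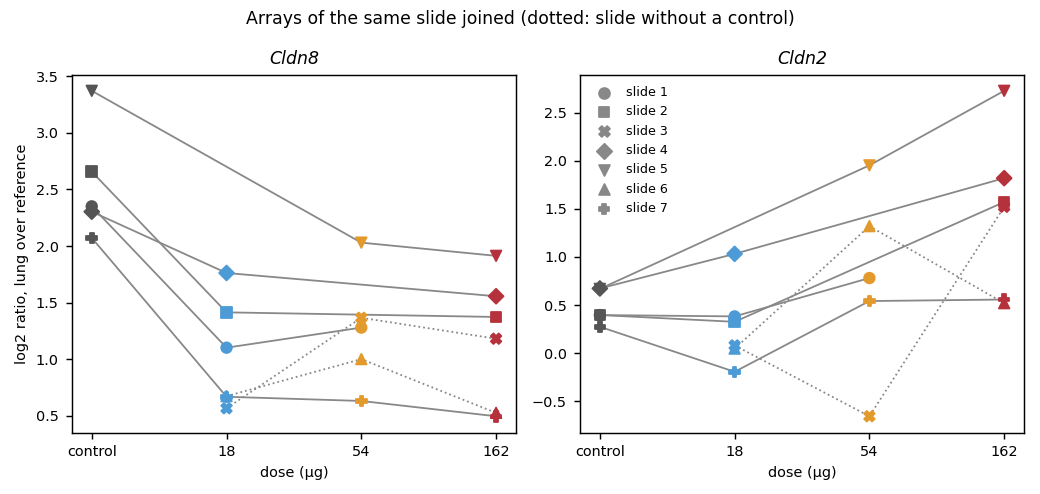
The log2 ratio of Cldn8 (left) and Cldn2 (right) by dose in µg, with arrays of the same slide sharing a symbol and joined by a line (dotted for the 2 slides without a control). On every slide with a control the lines of Cldn8 lead down to the dosed mice. Those of Cldn2 lead up to 162 µg on the 4 slides that hold both a control and that dose.

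The call of Cldn8 at 54 µg was the least firm of the 3. In limma it was lost without control replicate 3 (log2 fold change -0.97, adjusted p = 0.0613), control replicate 5 (-0.96, 0.0553), 54 µg replicate 2 (-0.99, 0.0671) or 54 µg replicate 4 (-0.98, 0.0773), and it was also lost with the deposited log2 table (-0.77, 0.0592), without normalization (-0.91, 0.725) and without the slide term (-1.29, 0.102). At 18 µg the call was kept whichever array was left out and was lost with normexp background correction in the Cy5 channel alone (-0.78, 0.0584). At 162 µg it was kept whichever array was left out and under all 17 alternatives.

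The marker lists of ciliated cells and of club and other secretory cells, both of the airway, had mostly negative log2 fold changes after exposure. All 9 measured ciliated genes had negative log2 fold changes at each dose, and 2 of them passed the test at 162 µg (Ccdc39 and Rsph1, parts of the axoneme), where 6.89% of expressed genes did. The mean log2 ratio of the ciliated list lay between 3.01 and 3.45 in controls and, in order of dose, between 1.13 and 3.32, 1.98 and 3.22, and 1.07 and 2.94, and none of the 9 genes was below the limit for expression. Of the 9 measured club and secretory genes, 9 had negative log2 fold changes at 18 µg (median -0.86), 7 at 54 µg (-0.55) and 8 at 162 µg (-0.41), where Cyp2f2, a cytochrome P450 of club cells, passed (adjusted p = 0.00507 in limma), with 5 of 6 mice below every control. The mean log2 ratio of that list lay between 4.78 and 6.77 in controls and, in order of dose, between 3.36 and 7.02, 4.21 and 5.96, and 4.41 and 6.37. In 2 dosed mice, 18 µg replicate 3 (3.32) and 54 µg replicate 5 (3.22), the ciliated level lay inside the range of the controls. Their Cldn8 values were 1.76 and 1.00. Both are among the 4 arrays that stood apart in Krt5 and Krt15, and the slide of 54 µg replicate 5 held no control. The part of ciliated and club cells in the fall of Cldn8 was not tested.

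Cldn2 forms a pore for small cations and water and is typical of leaky epithelia. Its brighter probe, A_52_P251450, had log2 ratios of 0.40, 0.40, 0.67, 0.67 and 0.27 in controls. At 18 µg the lowest, median and highest were -0.19, 0.20 and 1.03, and at 54 µg the 5 values were 0.78, 1.95, -0.66, 0.54 and 1.32. At 162 µg the lowest, median and highest were 0.52, 1.55 and 2.73. Of the mice given 162 µg, 4 of 6 lay above every control, while the remaining pair, replicates 5 and 6, lay at 0.56 and 0.52, within the controls. The mean of the controls was 0.48 ± 0.18 (SD, n = 5). The dosed groups spread more widely, with 0.28 ± 0.42 for 18 µg (n = 6), 0.79 ± 0.97 for 54 µg (n = 5) and 1.45 ± 0.83 for 162 µg (n = 6).

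In limma Cldn2 was 2.21-fold higher at 162 µg than in controls (log2 fold change 1.15, SE 0.29, adjusted p = 0.0232). The log2 fold change was 0.13 (SE 0.29, adjusted p = 0.891) at 18 µg and 0.58 (SE 0.31, adjusted p = 0.647) at 54 µg, and neither passed. Within slides, Cldn2 at 162 µg was above its control on 4 of 4 slides, by log2 differences of 0.28 to 2.06. At 54 µg it was above on 3 of 3 (0.27 to 1.28), and at 18 µg it was below on 3 of 4 (-0.47 to 0.36). The order of the fitted levels was control, 18, 54 and 162 µg, and neighbours in it did not pass a test: the difference was 0.45 (95% confidence interval -0.15 to 1.06) between 54 and 18 µg and 0.56 (-0.04 to 1.17) between 162 and 54 µg. Without the slide term 18 µg lay below the controls, with a log2 fold change of -0.20. The difference between 162 and 18 µg was tested directly and passed in limma (log2 difference 1.02, SE 0.27, adjusted p = 0.0384), as did 5% of expressed genes.

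The Cy5 signal of Cldn2 was low, with a median of 101 in controls and, in order of dose, 84.5, 156 and 171, beside a local background with group medians of 66 to 74 that was not subtracted. With normexp background correction the log2 fold change at 162 µg was 0.81 (adjusted p = 0.0239 in limma). The probe was well above background on 4 of 5 control arrays, 1 of 6 at 18 µg, 4 of 5 at 54 µg and 5 of 6 at 162 µg. The arrays of 162 µg replicates 5 and 6 were also the dimmest of their group, with a median Cy5 signal of 92.5 and 83 against up to 164 on the others; the part of brightness in their low Cldn2 was not tested. The second Cldn2 probe, A_66_P122511, was well above background on 1 of 22 arrays and did not pass the filter on low signal. Its log2 fold change at 162 µg was 0.22 (SE 0.11, adjusted p = 0.320 in limma), and it was above the control on 3 of 4 slides. At a signal this near background, that probe neither backs nor contradicts the change of the brighter one.

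In limma the call of Cldn2 at 162 µg was lost without control replicate 3 (log2 fold change 0.93, adjusted p = 0.111), control replicate 4 (1.12, 0.0627), 162 µg replicate 1 (1.12, 0.0694) or 162 µg replicate 2 (1.01, 0.0805). It was also lost without normalization (0.96, 0.458), without the slide term (0.97, 0.170) and with slide as a random block (1.04, 0.0587). With the replicate number as a block it was 1.09 with an adjusted p of 0.0828. The call between 162 and 18 µg was lost when any of 13 arrays was left out (log2 difference 0.80 to 1.10, adjusted p = 0.0503 to 0.107): control replicates 1 and 3, all 6 replicates at 18 µg, 54 µg replicate 4, and 162 µg replicates 1 to 4. It was also lost with median centring (0.88, adjusted p = 0.0881), without normalization (1.02, 0.354), without the slide term (1.17, 0.0887) and, at a much smaller difference, with the Cy5 channel alone (0.46, 0.223) and with normexp in that channel alone (0.52, 0.200).

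Cldn10 forms ion-selective pores and is expressed by club cells of the mouse airway. Its log2 ratios were 4.52, 4.54, 4.64, 3.48 and 4.15 in controls, and 3.65, 4.82, 3.56, 3.65 and 4.31 at 54 µg. At 18 µg the lowest, median and highest were 1.08, 3.18 and 4.36, and at 162 µg 0.87, 3.13 and 3.89. Below every control were 4 of 6 mice at 18 µg, none at 54 µg and 4 of 6 at 162 µg, so that the groups overlapped. This was the largest spread among the 10 claudins, with an SD of 1.21 at 18 µg and 1.09 at 162 µg against 0.48 in controls.

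In limma the log2 fold change of Cldn10 was -0.94 (SE 0.47, adjusted p = 0.363) at 18 µg, 0.05 (SE 0.50, adjusted p = 0.994) at 54 µg and -1.17 (SE 0.47, adjusted p = 0.179) at 162 µg. Within slides it was lower than the control on 3 of 4 slides at 18 µg (-3.06 to 0.63), 2 of 3 at 54 µg (-0.87 to 0.18) and 4 of 4 at 162 µg (-1.74 to -0.29). The test was passed at 162 µg under 2 of 17 alternatives, the Cy5 channel alone (-1.28, adjusted p = 0.0364 in limma) and a fit of these 2 groups alone (-0.97, adjusted p = 0.0407). The arrays lowest in Cldn10 were 162 µg replicate 6, 18 µg replicate 5 and 18 µg replicate 6 (2.29), and they were the 3 lowest of all 22 in ciliated genes too, at 1.07, 1.53 and 1.13. The same 3 arrays were also the dimmest of all 22, with a median Cy5 signal of 83, 89.5 and 86 in that order. The part of the ciliated level and of brightness in these values was not tested.

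Cldn7, which is found along the lateral membrane of airway epithelium as well as in the junction, had log2 ratios of 2.98, 2.61, 2.72, 2.56 and 2.72 in controls. The lowest, median and highest were 1.81, 2.49 and 2.62 at 18 µg, and 1.97, 2.31 and 2.66 at 162 µg. At 54 µg the values were 2.63, 2.24, 2.18, 2.09 and 2.76. Below every control were 5 of 6 mice at 18 µg, 3 of 5 at 54 µg and 5 of 6 at 162 µg. In limma its log2 fold changes of -0.35 (SE 0.16, adjusted p = 0.288), -0.33 (SE 0.17, adjusted p = 0.628) and -0.38 (SE 0.16, adjusted p = 0.190) did not pass, although within slides Cldn7 was below the control on 4 of 4, 3 of 3 and 4 of 4 slides at the 3 doses.

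Cldn3 and Cldn4, sealing claudins of airway and alveolar epithelium, did not pass at any dose. Cldn3 had group means of 5.24 ± 0.13 (SD) in controls and, in order of dose, 5.40 ± 0.41, 5.11 ± 0.60 and 5.48 ± 0.36. In limma its log2 fold change lay between -0.30 (54 µg, SE 0.16, adjusted p = 0.652) and 0.05 (18 µg, SE 0.15, adjusted p = 0.916), and at 162 µg it was -0.02 with a 95% confidence interval of -0.33 to 0.30.

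The probes of Cldn4 did not give the same picture. The brighter one, A_55_P2183453, had log2 fold changes of 0.32 (SE 0.16, adjusted p = 0.376 in limma), -0.05 (SE 0.18, adjusted p = 0.981) and 0.34 (SE 0.16, adjusted p = 0.285) at 18, 54 and 162 µg. The other, A_51_P356467, had -0.11 (SE 0.23, adjusted p = 0.890), 0.26 (SE 0.25, adjusted p = 0.868) and 0.56 (SE 0.23, adjusted p = 0.197). Both probes were above the control of the slide on 4 of 4 slides at 162 µg, and on 18 µg slides they went opposite ways, the first higher on 3 of 4 and the second lower on 4 of 4. They were well above background on 16 and 11 of 22 arrays. Mouse 162 µg replicate 2, which was also highest in Cldn2, was highest of all on both probes, at 1.09 and 2.20.

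Cldn1, part of the epithelial barrier of skin and airway, was a dim probe, well above background on 6 of 22 arrays and on none of 6 at 162 µg. Its log2 ratios in controls were 0.67, 0.62, 0.63, 0.31 and 0.46, and the lowest, median and highest at 162 µg were 0.00, 0.19 and 0.59. It was well above background on 3 of 5 control arrays, and the difference at 162 µg did not pass (adjusted p = 0.356 in limma). No fold is given for it. Cldn23, a less studied member of the family, had log2 fold changes of -0.02 (SE 0.10, adjusted p = 0.951 in limma), -0.27 (SE 0.11, adjusted p = 0.471) and -0.18 (SE 0.10, adjusted p = 0.391). At 54 µg it lay below every control in 4 of 5 mice.

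Cldn18, the claudin of alveolar epithelium, was well above background on all 22 arrays and had nearly the same mean in every group. Its group means were 2.45 ± 0.28 (SD) in controls and, in order of dose, 2.37 ± 0.36, 2.42 ± 0.42 and 2.50 ± 0.42. The log2 fold change in limma was 0.11 at 18 µg (95% confidence interval -0.19 to 0.40), 0.13 at 54 µg (-0.18 to 0.45) and 0.11 at 162 µg (-0.18 to 0.41), with adjusted p of 0.785, 0.897 and 0.786. These intervals leave room for a change of up to 0.45 on the log2 scale.

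Cldn5 seals the junctions of endothelium. Its log2 ratios were 6.40, 6.56, 6.68, 6.15 and 6.14 in controls, and the lowest, median and highest were 5.85, 7.05 and 7.62 at 18 µg and 6.16, 6.83 and 7.26 at 162 µg. At 54 µg they were 5.40, 6.69, 6.66, 6.97 and 6.57. At 18 µg 5 of 6 mice lay above every control and the sixth, replicate 1, below. In limma the log2 fold change was 0.44 (SE 0.22, adjusted p = 0.361) at 18 µg, -0.17 (SE 0.24, adjusted p = 0.927) at 54 µg and 0.05 (SE 0.22, adjusted p = 0.952) at 162 µg, and none passed. Within slides at 18 µg it was above the control on 3 of 4 slides, with log2 differences of -0.55 to 1.31.

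**Figure D3:**
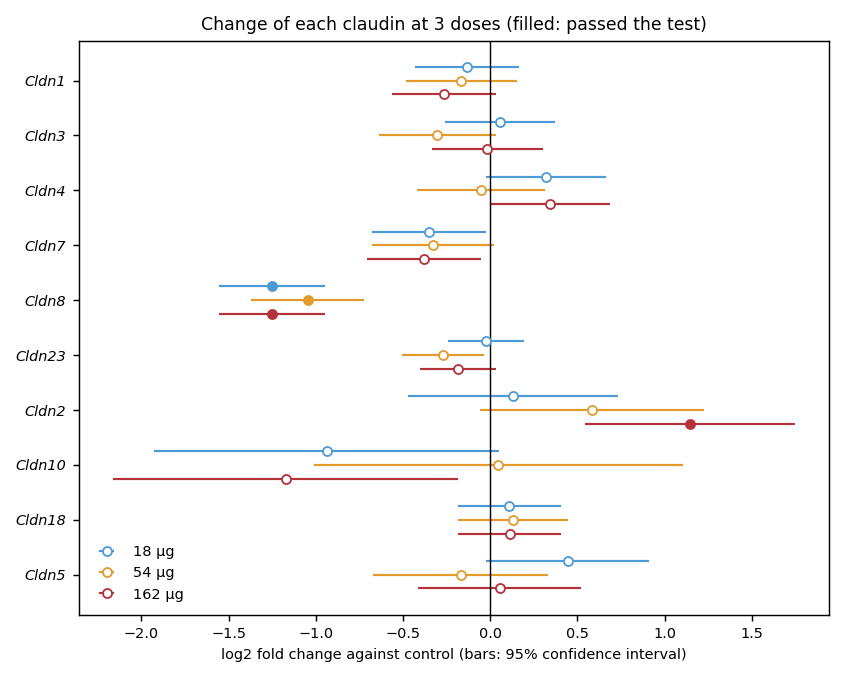
Log2 fold changes of the 10 claudins against controls at 18, 54 and 162 µg, from the limma fit with slide, with their 95% confidence intervals. Filled points passed the test: Cldn8 at each dose and Cldn2 at 162 µg.

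Between doses, only the comparison of Cldn2 at 162 and 18 µg passed. No claudin passed between 162 and 54 µg (0% of expressed genes did) or between 54 and 18 µg (0.0305%). With unadjusted p below 0.05, 2041 and 2468 of the 16404 expressed genes stood out in these comparisons. The claudins among them between 162 and 54 µg were Cldn10 (log2 difference -1.22, SE 0.47, adjusted p = 0.493 in limma) and Cldn4 (0.40, SE 0.16, adjusted p = 0.549). Between 54 and 18 µg they were Cldn5 (-0.61, SE 0.22, adjusted p = 0.375), Cldn3 (-0.36, SE 0.15, adjusted p = 0.442), Cldn4 (-0.37, SE 0.16, adjusted p = 0.464) and Cldn23 (-0.25, SE 0.10, adjusted p = 0.442).

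Once dose and slide were taken out, some pairs of claudins varied together from mouse to mouse and others went opposite ways. The following Pearson correlations over 22 arrays describe this, and over all pairs they ran from 0.81 to -0.59. They rest on 12 residual degrees of freedom and on arrays that share a normalization. The closest pairs were Cldn2 with Cldn18 (r = 0.81), Cldn2 with Cldn7 (0.74), Cldn3 with Cldn5 (0.72) and Cldn7 with Cldn18 (0.64). Cldn8, the member that fell, had its highest value with Cldn10 (0.35) and its lowest with Cldn23 (-0.59).

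The same description set the claudins beside the marker lists. Cldn5 followed the endothelial list (0.87, 10 genes) and equally the alveolar type II list (0.87, 10 genes) and the type I list (0.76, 7 genes). Cldn10 followed the ciliated list (0.76, 9 genes) more than the club and secretory list (0.33, 9 genes). Cldn2 was closest to other membrane proteins of the tight junction (0.79, 13 genes) and to general epithelial genes (0.73, 8 genes). Cldn8 reached 0.49 with the ciliated list, 0.44 with a list of smooth muscle and fibroblasts and 0.29 with the club list. With a list of mesothelial cells it had -0.55. Cldn18, an alveolar claudin by background, had -0.04 with the type II list. The closest of all to the ciliated list was Cldn7 (0.85).

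**Figure D4:**
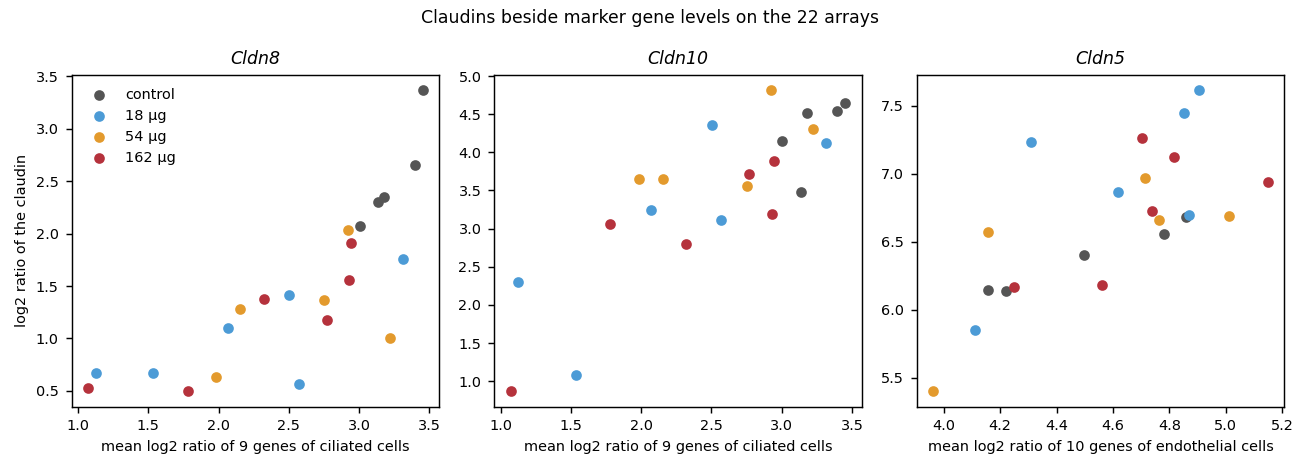
The log2 ratio of Cldn8 and of Cldn10 against the mean log2 ratio of 9 ciliated cell genes, and of Cldn5 against that of 10 endothelial genes, each point 1 of the 22 arrays coloured by dose. Controls fill the upper right of the first panel, between 3.01 and 3.45 on the ciliated scale, and 2 dosed mice lie inside that range. The part of the ciliated level in Cldn8 was not tested.

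The endothelial level itself lay between 4.16 and 4.86 in controls and, in order of dose, between 4.11 and 4.91, 3.96 and 5.01, and 4.25 and 5.15. Kdr, the main receptor for vascular endothelial growth factor, was the 1 of 10 endothelial genes that passed at 18 µg (log2 fold change 0.65, SE 0.16, adjusted p = 0.0478 in limma), where 2.07% of expressed genes did. The general epithelial level lay between 1.78 and 1.99 in controls and between 1.75 and 2.88 at 162 µg, where keratin 7 (Krt7) passed (1.17, SE 0.19, adjusted p = 0.00155) as 1 of 8 genes, beside 6.89% of expressed genes. The part of either level in the claudin values was not tested.

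The named genes whose pattern over the 22 arrays, with slide means taken out, was most like that of Cldn8 among 14948 expressed genes were Aldh3a1, an aldehyde dehydrogenase (r = 0.94), Dcdc2a, which binds microtubules (0.92), Osbpl6, an oxysterol-binding protein (0.92), Zc2hc1a (0.91) and Itprid1 (0.91). Their log2 fold changes at 162 µg were -1.17, -1.08, -1.01, -0.56 and -1.88. Dose was not taken out here, unlike in the correlations above, so the choice itself favours genes that moved with dose as Cldn8 did. The most opposed were Csf1, the growth factor of macrophages (-0.91), and Srm, spermidine synthase (-0.89), with 0.48 and 1.00.

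The genes most like Cldn2 were Pard6b, a polarity protein of the apical junction (r = 0.93), Tmem243 (0.92), Kcne4, a potassium channel subunit (0.91), Trip10 (0.90) and Picalm, an adaptor of clathrin (0.90), with log2 fold changes of 0.70, 1.73, 1.07, 0.63 and 0.57 at 162 µg. The most opposed were Zfp606 (-0.87) and Dppa4 (-0.87), with -0.55 and -0.22. Here too dose was left in.

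The other parts of the junction are read against the share of all expressed genes that passed, 2.07%, 0.39% and 6.89% in order of dose. Of 12 expressed claudins and claudin domain genes outside the 10, none passed against controls at any dose, with median log2 fold changes of -0.05, -0.06 and -0.10, and Cldn12 passed between 162 and 18 µg (0.61, SE 0.13, adjusted p = 0.00959 in limma). Of 13 other membrane proteins of the tight junction, such as occludin and the junctional adhesion molecules, none passed either.

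Of 22 scaffold and polarity proteins none passed at 18 or 54 µg, and 3 passed at 162 µg, beside 6.89% of expressed genes. Amotl2, an angiomotin-like scaffold, rose (0.74, SE 0.17, adjusted p = 0.0132 in limma), with 6 of 6 mice above every control, and so did Pard6b (0.70, SE 0.17, adjusted p = 0.0222), with 2 of 6 above every control and 1 below. Prkcz, an atypical protein kinase C of the polarity complex, fell (-0.74, SE 0.21, adjusted p = 0.0466), with 6 of 6 below every control. Between 162 and 18 µg, where 5% of expressed genes passed, Cgn, the scaffold cingulin, was higher (0.59, SE 0.13, adjusted p = 0.0171), as was Pard6b (0.70, SE 0.16, adjusted p = 0.0186). Of 15 genes of adherens junctions and desmosomes, Pkp2, a plakophilin of desmosomes, fell at 162 µg (-0.74, SE 0.18, adjusted p = 0.0219), with 5 of 6 below every control.

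**Figure D5:**
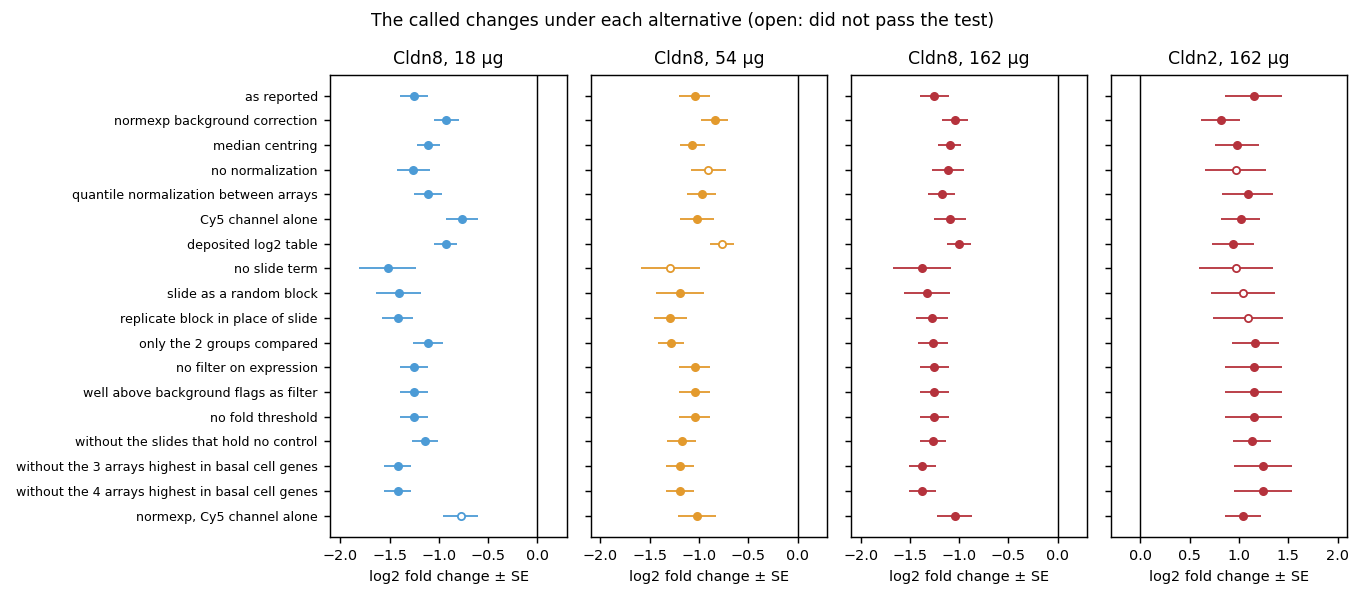
Log2 fold change ± SE of Cldn8 at 18, 54 and 162 µg and of Cldn2 at 162 µg, as reported (top) and under each alternative of the processing; open points did not pass the test. Cldn8 stays below 0 and Cldn2 above 0 throughout, Cldn8 between -1.52 and -0.76 at 18 µg and Cldn2 between 0.81 and 1.24.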

How the data were processed

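Lung RNA of 22 mice was measured on 2-colour Agilent arrays. The authors deposited intensity values for every spot, the median pixel signal in each channel, not background subtracted, which per the file headers came from version 10.7.3.1 of Feature Extraction, and a normalized log2 table whose steps are not given in the sources used here. Intensities gave all values reported, and the log2 table served as an alternative.

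Spots marked as outliers were left out. Loess (span 0.3) was fitted to the log2 ratios of Cy5 over Cy3 of each array, and the median over the spots of a probe was taken. limma 3.58.1 in R 4.3.3 fitted dose and slide over 22 arrays and 55681 probes (12 residual degrees of freedom), with Benjamini-Hochberg adjustment. Calls needed an adjusted p of at most 0.05, a change of at least 1.5-fold, and a Cy5 signal above the trimmed mean plus 3 trimmed SD (5% trimmed) of the 308 negative controls in 80% or more of a group's arrays. A gene was represented by its brightest probe, and 26413 probes were named through RefSeq. The number of arrays limits the precision. The script was tested on simulated data.

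The claudins, gene lists, tests and alternatives were chosen with earlier results of these data known. Named were all claudins of the list, junction genes that passed against controls, and the 5 genes most like and 2 most unlike each claudin that passed. Genes added outside this rule were Kdr, Krt7, Ccdc39, Rsph1, Cyp2f2, Krt5, Krt14, Krt15, Cldn12, Cgn and 5 tissue markers. They were chosen after their values were seen, as were 4 alternatives. Sources name separate mice as replicates.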

Additional observations from a re-analysis of the deposited data

Results flagged for a closer look

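Of 40 groups of 5 or 6 arrays, 4 for each claudin, 2 had an array far from the rest by Dixon's criterion, which chance gives in about 1 in 20 groups. Cldn5 in 54 µg replicate 1 had a log2 ratio of 5.40, below the other 4 mice of its group, and its distance to the nearest was 0.746 of the range. The same mouse had the lowest endothelial level of all 22 arrays, 3.96. Cldn10 in 162 µg replicate 6 had a log2 ratio of 0.87, at a distance of 0.641 of the range from the nearest, and it had the lowest ciliated level of all arrays, 1.07. That array was also the dimmest of all, with a median Cy5 signal of 83. Neither group carried a call.

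The change of Cldn2 differed between doses: the log2 difference between 162 and 18 µg was 1.02 (SE 0.27, adjusted p = 0.0384 in limma), tested directly. It no longer passed when any 1 of 13 arrays was omitted, nor under 5 of 17 alternatives, and the difference was 0.46 (adjusted p = 0.223) with the Cy5 channel alone.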

How the results depend on the processing

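The 5 calls of single claudins, Cldn8 at 18, 54 and 162 µg and Cldn2 at 162 µg against controls and against 18 µg, kept their direction in all 85 values from 17 alternatives and all 110 with 1 array left out, and lost the test in 13 and 21 of them. Of the 26 changes that did not pass, 64 of 442 values under alternatives turned sign and 2 passed, both Cldn10 at 162 µg. The number of claudins called at 18 µg was 1, and 0 with normexp in the Cy5 channel alone. At 54 µg it was 1, and 0 without normalization, with the deposited log2 table and without the slide term. At 162 µg it was 2, and 1 without normalization, without the slide term, with slide as a random block and with the replicate block; the Cy5 channel alone and the fit of 2 groups gave 3. Between 162 and 18 µg it was 1, and 0 with median centring, without normalization, with the Cy5 channel alone (normexp or not) and without the slide term. With 1 array left out, the counts ran, in order of dose, from 1 to 1, 0 to 1 and 1 to 2, and from 0 to 1 between 162 and 18 µg, and stayed at 0 in the other 2 comparisons. The causes were not tested. Of the alternatives, 4 were chosen after seeing the data: the 3 below that leave out arrays, and normexp in the Cy5 channel alone.

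Without the 6 arrays of the slides that hold no control, Cldn8 had log2 fold changes of -1.14, -1.17 and -1.27 and Cldn2 1.13 at 162 µg, and without the 3 arrays highest in basal cell genes -1.42, -1.19, -1.38 and 1.24. All 4 passed under both. Leaving out the fourth array high in basal cell genes, 162 µg replicate 3, as well gave the same values, since it was by then the only array of its slide. Control replicate 4, 18 µg replicate 3 and 162 µg replicate 3 were all the arrays of slide 4. For these 3 arrays, high basal cell genes and slide cannot be told apart. Over all probes 582, 99 and 2002 were called at 18, 54 and 162 µg, and alternatives gave 2 to 877, 0 to 919 and 8 to 3290. Between doses they gave 44 to 2324 (162 against 18 µg), 0 to 94 (162 against 54 µg) and 0 to 38 (54 against 18 µg).

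Same-numbered mice did not all deviate together (median r 0.21 against -0.06 for other numbers, lowest -0.26 over 31 pairs, and 12 of 22 arrays closest to their own number), so the numbers were not taken as pairs. With the replicate block in place of slide, Cldn8 had log2 fold changes of -1.42, -1.29 and -1.28 and Cldn2 1.09 at 162 µg.

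Cldn1, Cldn2, Cldn4 and Cldn23 were dim, as was Cldn8 in the dosed mice, and a change near their background was not detectable on all arrays.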
